A study of Mus musculus with 8 samples.

Results

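The genes described here are 46 mouse genes of the interferon and RNA-sensing response, taken by symbol from a list, out of 41128 genes in the count table. They were measured by RNA sequencing in 8 libraries of haemogenic endothelium, the endothelium that gives rise to the earliest blood cells, made in culture from C57BL/6 embryonic stem (ES) cells. An Hdac1lox/lox line and an Hdac2lox/lox line, in which loxP sites flank part of the gene for histone deacetylase HDAC1 or HDAC2, were each sampled with ETOH (ethanol, the solvent) and with 4OHT (4-hydroxytamoxifen, the ligand that activates tamoxifen-dependent Cre), 2 libraries in each of the 4 groups. The study names deletion of Hdac1 or of Hdac2 as its design, and these are called below the Hdac1 line and the Hdac2 line, with EtOH or 4OHT. All 4 groups share the strain and the differentiation protocol, and no cells without loxP sites were among the samples used here. The sources used here do not name the Cre transgene, and do not say whether a line is 1 clone or whether replicates are separate cultures, so p-values measure only the spread between these libraries, which may be technical.

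Cells read foreign or misplaced RNA through the RIG-I-like receptors in the cytosol, which signal through the adaptor MAVS on mitochondria, and through TLR3 in endosomes. These routes switch on interferon genes through interferon-regulatory factors (IRFs). Secreted type I interferon then acts through its receptor, JAK kinases and a complex that holds STAT2 and IRF9, which binds the interferon-stimulated response element (ISRE) in the promoters of interferon-stimulated genes. The products of those genes bind, edit or degrade RNA, block viral entry or release, attach ISG15 or ADP-ribose to proteins, and load peptides on class I molecules. The sensors are themselves interferon-stimulated genes, and a low level of the programme without infection has been linked to blood stem cell formation in embryos.

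The ISRE is the sequence feature that these genes are best known to share, so promoters of 7 members are printed here, 6 with a match to its core and 1 without, all members whose levels are described below. The core searched was GAAA, any 2 bases and GAAA, on either strand, which reads TTTC, any 2 bases and TTTC on the opposite one. Each run of letters covers 150 bases before to 30 bases after an annotated start, on the gene's own strand from 5′ to 3′, from RefSeq on GRCm38.p6 (mm10). Capitals mark the matches, which overlap each other in Isg15 (3 matches) and in Bst2 (2 matches). The windows are chr4:40239796-40239975 (minus strand) for Ddx58, chr17:78882543-78882722 (minus strand) for Eif2ak2, chr19:34640739-34640918 (plus strand) for Ifit1 and chr4:156200789-156200968 (minus strand) for Isg15. Those of the other members are chr8:71537443-71537622 (minus strand) for Bst2, chr2:122147537-122147716 (plus strand) for B2m and chr16:35938998-35939177 (minus strand) for Dtx3l.
Ddx58: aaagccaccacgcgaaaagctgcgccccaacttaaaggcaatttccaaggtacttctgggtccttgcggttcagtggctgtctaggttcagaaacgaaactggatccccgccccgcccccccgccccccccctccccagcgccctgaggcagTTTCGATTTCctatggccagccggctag
Eif2ak2: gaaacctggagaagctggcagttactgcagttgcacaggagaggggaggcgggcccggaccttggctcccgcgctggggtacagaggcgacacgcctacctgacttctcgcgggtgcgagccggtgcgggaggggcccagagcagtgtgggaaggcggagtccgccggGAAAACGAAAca
Ifit1: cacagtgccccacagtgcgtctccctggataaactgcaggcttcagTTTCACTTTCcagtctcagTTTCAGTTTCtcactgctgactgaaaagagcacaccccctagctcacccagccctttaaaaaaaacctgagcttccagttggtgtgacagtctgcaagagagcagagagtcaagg
Isg15: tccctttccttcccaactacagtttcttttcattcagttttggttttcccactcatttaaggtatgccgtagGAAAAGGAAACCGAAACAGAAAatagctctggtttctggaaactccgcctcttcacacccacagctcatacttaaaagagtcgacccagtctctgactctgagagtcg
Bst2: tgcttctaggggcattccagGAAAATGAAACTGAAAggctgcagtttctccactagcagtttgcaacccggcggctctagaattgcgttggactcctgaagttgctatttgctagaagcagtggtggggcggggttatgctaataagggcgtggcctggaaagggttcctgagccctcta
B2m: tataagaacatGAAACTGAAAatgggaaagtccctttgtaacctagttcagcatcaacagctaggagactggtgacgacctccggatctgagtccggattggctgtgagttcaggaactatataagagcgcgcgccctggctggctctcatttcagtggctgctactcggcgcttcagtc
Dtx3l: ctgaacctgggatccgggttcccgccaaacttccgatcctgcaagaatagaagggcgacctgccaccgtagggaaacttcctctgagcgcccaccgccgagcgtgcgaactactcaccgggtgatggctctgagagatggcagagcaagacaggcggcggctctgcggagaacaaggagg

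In Ddx58 and Eif2ak2 the match lies just after the annotated start, and in Ifit1, Isg15, Bst2 and B2m it lies before it. RefSeq promoters were found for 38 of the 46 members. In windows of 250 bases before to 50 bases after a start, 16 of these 38 (42.1%) held the ISRE core, against 3.99% of 27025 genes with a promoter in the table. A match describes letters in a window, not a bound site, and a window with no match says only that the letters are not there.

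Library depth ran from 10215792 to 19552380 counts, and levels below are CPM, the counts scaled to a common library size with TMM factors. The targeted genes did not check the labels. Hdac1 stood at 5.78 and 5.602 CPM with EtOH and 6.99 and 7.12 with 4OHT in the Hdac1 line. In the Hdac2 line Hdac1 stood at 7.45 and 7.16 with EtOH and 5.12 and 4.00 with 4OHT. Those 4OHT libraries were below all others (log2 change -0.68 ± 0.24 SE, edgeR adjusted p = 0.0565). In the Hdac1 line, named for the gene, Hdac1 was not lower with 4OHT (log2 change 0.31 ± 0.23 SE, edgeR adjusted p = 0.844). Hdac2 stood at 165 and 151 with EtOH and 149 and 149 with 4OHT in the Hdac2 line. It stood at 148 and 142 with EtOH and 152 and 140 with 4OHT in the Hdac1 line. Whether the counted reads lie in the deleted part is not known. All 10 endothelial and haemogenic markers listed had counts in each of the 4 groups. Of 14179 genes with enough counts to be tested, 35 were members and 11 members were not. Adjusted p-values come from edgeR's quasi-likelihood test on all 8 libraries with Benjamini-Hochberg adjustment over the 14179 genes. A gene is said to have risen or fallen where this was under 0.05.

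In the Hdac2 line, 20 of the 46 members rose with 4OHT and 1 fell, 14 did not pass the test and 11 were not tested. Over all tested genes 36.1% were called, 18.9% higher and 17.2% lower. The 20 were Ddx58, Ifih1, Tlr3, Irf1, Irf2, Eif2ak2, Oasl2, Adar, Ifit1, Ifit2, Bst2, Samd9l, Xaf1, Usp18, Trim25, Parp9, Parp12, Parp14, Dtx3l and B2m, and the 1 that fell was Ifitm2. Both 4OHT libraries lay above both EtOH libraries for 27 members, against 38.6% of all tested genes, and below them for 3, against 39.7%. The median log2 fold change of the 35 tested members was 1.01 and that of all tested genes -0.02. Ifit1 and Ifit3 had fewer than 2 libraries over the filter's 0.687 CPM outside the Hdac2 line with 4OHT, so they entered the test through the group in which they were high. Counts and medians over the 35 therefore describe the members that could be tested, not all 46.

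Leaving out 1 library of the Hdac2 line removed calls across the whole table, with the remaining library assumed to vary like the other groups. Without EtOH replicate 1, the calls of Ddx58 and B2m were left, and 0.801% of all genes were called. Without 4OHT replicate 2, those of Ddx58 and Parp14 were left (0.616% of all genes). Without 4OHT replicate 1, 9 were left, of Ddx58, Ifih1, Eif2ak2, Samd9l, Xaf1, Parp9, Parp14, Dtx3l and B2m (5.6%). Without EtOH replicate 2, edgeR called 0 of all tested genes, and 18 of the 21 members had an unadjusted p under 0.05. The direction of all 21 was the same in each of these fits. The EtOH and 4OHT libraries of that line did not overlap for any of the 21, so the kept direction was fixed in advance and was not a test. The fall of Ifitm2 lost its call in all 4 and also without Hdac1 line 4OHT replicate 2.

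**Figure D1:**
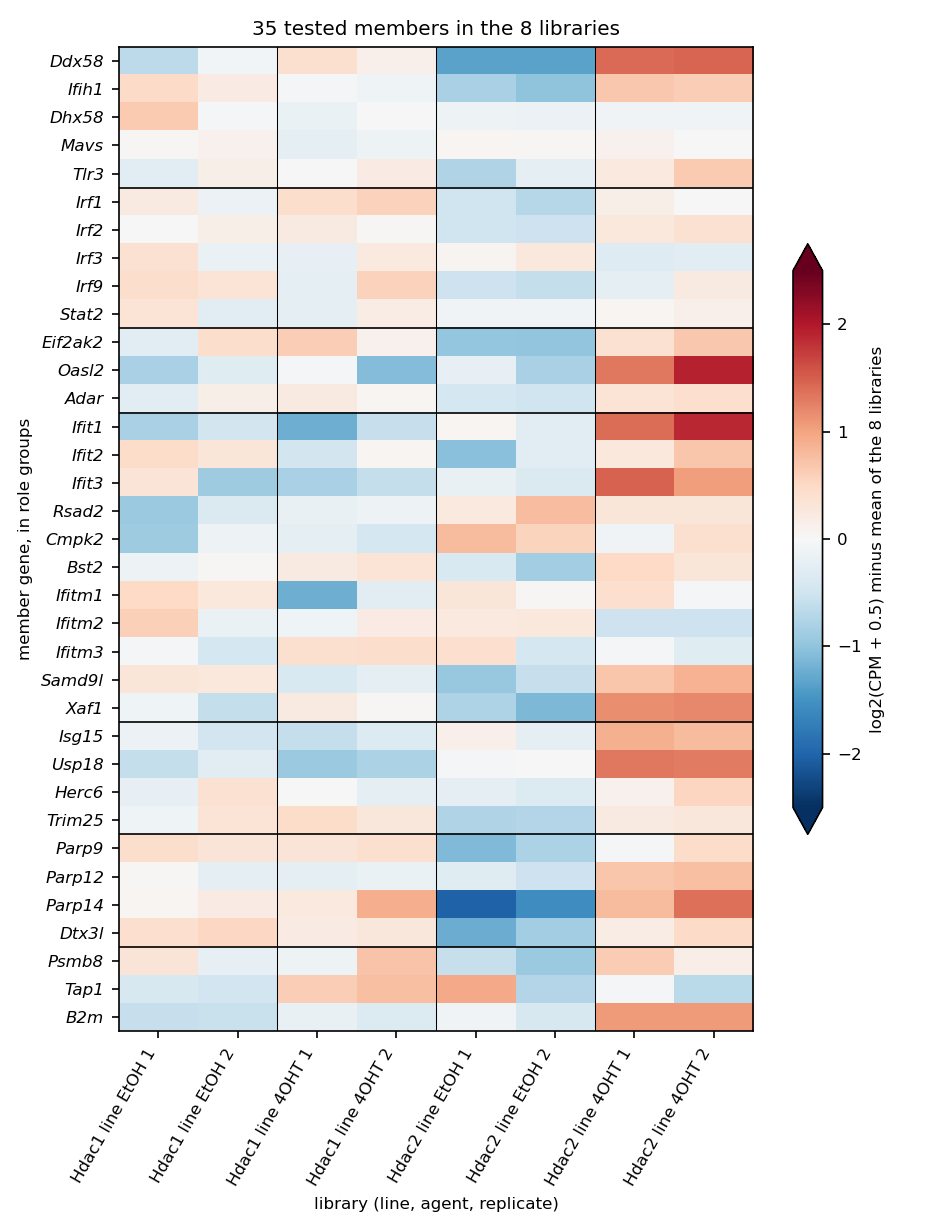
Level of the 35 tested members (rows, in role groups) in the 8 libraries (columns), as log2(CPM + 0.5) minus the mean of the 8 libraries, with red above and blue below that mean. The Hdac2 line with 4OHT is red for most members, and the Hdac2 line with EtOH is blue for 16 members whose 2 libraries lie below all other 6.

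Markers of other cells moved in the same comparison, in which 18.9% of all tested genes rose and 17.2% fell. Of 10 macrophage and monocyte markers, 7 were tested, 5 rose and 1 fell. Their summed level was 39.0 to 40.4 CPM with EtOH and 44.5 to 53.8 with 4OHT in the Hdac2 line, where Itgam (log2 fold change 4.30), Csf1r (2.92) and Ptprc (2.74) rose and Mpo (-2.90) fell. C1qa had 0 counts in all 4 libraries of that line. Of 8 erythroid markers 6 fell, with a sum of 1653 to 1707 CPM with EtOH and 226 to 367 with 4OHT. Of 10 endothelial markers 3 rose and 1 fell, with sums of 2794 to 3080 and 5418 to 7068 CPM. Of 4 tested cardiomyocyte markers 2 rose, with sums of 3.63 to 6.35 and 19.3 to 23.3 CPM. Of 4 tested fibroblast markers, of 1 visceral endoderm marker and of 2 pluripotency markers edgeR called 0, 0 and 1 (Sox2, lower), with 0, 0 and 1 at an unadjusted p under 0.05. All 8 lymphocyte and natural killer cell markers had 0 counts in the Hdac2 line with 4OHT, with sums of 0 to 0.519 CPM in the other groups. Of 5 plasmacytoid dendritic markers, Siglech, Clec10a and Cd300c had 0 in all 8 libraries, and Tcf4, also made by other cells, was the 1 of 2 tested that rose, with sums of 102 to 112 and 256 to 389 CPM. The part of these changes in the levels of the members was not tested, and in bulk RNA fewer cells of a type cannot be told apart from less RNA per cell.

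Of the 5 RNA sensors and their adaptor, 3 rose in the Hdac2 line. Ddx58, which encodes RIG-I, the cytosolic sensor of short and triphosphate-bearing double-stranded RNA, stood at 3.82 and 3.82 CPM with EtOH and 28.3 and 29.3 with 4OHT in the Hdac2 line, against 6.38 and 9.904 with EtOH and 13.8 and 11.3 with 4OHT in the Hdac1 line. The Hdac2 line held both the lowest pair of libraries and the highest, with no overlap with the Hdac1 line, and the rise was 7.53-fold (log2 change 2.91 ± 0.27 SE, adjusted p = 0.00413). Ifih1, which encodes MDA5, the sensor of long double-stranded RNA, stood at 1.62 and 1.34 CPM with EtOH and 5.43 and 5.15 with 4OHT in the Hdac2 line, against 4.64 and 3.801 with EtOH and 3.06 and 2.96 with 4OHT in the Hdac1 line. It too was lowest in the Hdac2 line with EtOH and highest there with 4OHT, a 3.54-fold rise (log2 change 1.82 ± 0.30 SE, adjusted p = 0.00893). Tlr3, the endosomal receptor for double-stranded RNA, stood at 7.65 and 11.3 CPM with EtOH and 15.8 and 21.1 with 4OHT in the Hdac2 line, against 10.8 and 14.6 with EtOH and 13.3 and 15.2 with 4OHT in the Hdac1 line. The 4OHT libraries of the Hdac2 line lay above all other 6, and the rise was 1.95-fold (log2 change 0.97 ± 0.28 SE, adjusted p = 0.0326).

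Dhx58 and Mavs did not pass the test. Dhx58, which encodes LGP2, a relative of RIG-I and MDA5 that regulates both, stood at 0.583 and 0.573 CPM with EtOH and 0.621 and 0.622 with 4OHT in the Hdac2 line, against 1.36 and 0.6502 with EtOH and 0.5496 and 0.683 with 4OHT in the Hdac1 line. All libraries but Hdac1 line EtOH replicate 1 lay near each other at few reads, and the difference in the Hdac2 line had a wide interval (log2 change 0.10 ± 0.57 SE, adjusted p = 0.898, 95% interval -1.21 to 1.41). Mavs, the adaptor through which RIG-I and MDA5 both signal, stood at 31.8 and 31.4 CPM with EtOH and 32.8 and 30.8 with 4OHT in the Hdac2 line, against 31.3 and 33.2 with EtOH and 26.2 and 27.8 with 4OHT in the Hdac1 line. Its EtOH and 4OHT libraries overlapped in the Hdac2 line, where the interval was narrow (log2 change 0.01 ± 0.15 SE, adjusted p = 0.959, 95% interval -0.33 to 0.35).

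**Figure D2:**
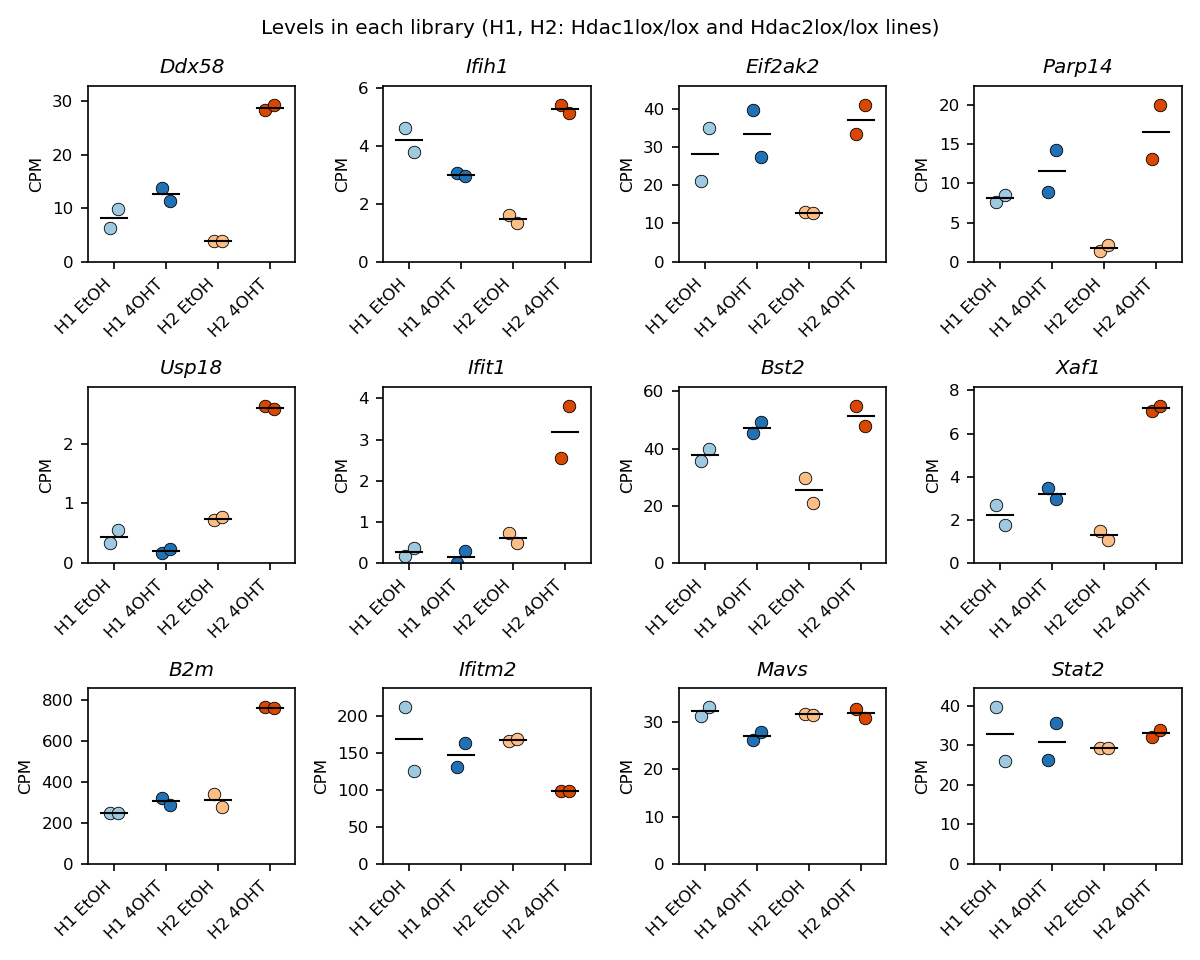
CPM of 12 members (panels, each axis starting at 0) in the 4 groups, where points are the 2 libraries of a group and the bar is their mean. Ddx58, Usp18, Xaf1 and B2m have both Hdac2 line 4OHT libraries far above the other 6, Ifitm2 has them below the other 6, and Mavs and Stat2 show little change.

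Of the 6 transcription factors of the pathway, 5 were tested and 2 rose in the Hdac2 line. Irf1, an activator that binds ISRE-like sites, stood at 8.82 and 7.54 CPM with EtOH and 14.1 and 12.6 with 4OHT in the Hdac2 line, against 14.9 and 11.5 with EtOH and 17.4 and 19.2 with 4OHT in the Hdac1 line. Its lowest libraries were those of the Hdac2 line with EtOH, and 4OHT there was 1.63-fold higher (log2 change 0.71 ± 0.22 SE, adjusted p = 0.0395) yet below the Hdac1 line with 4OHT. Irf2, which competes with IRF1 for the same sites and is mostly a repressor, stood at 21.6 and 21.3 CPM with EtOH and 36.9 and 40.3 with 4OHT in the Hdac2 line, against 30.8 and 33.96 with EtOH and 35.96 and 31.4 with 4OHT in the Hdac1 line. The Hdac2 line again held the lowest and the highest pair, with a 1.801-fold rise (log2 change 0.85 ± 0.16 SE, adjusted p = 0.0119).

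The factors through which sensing and interferon receptors signal did not pass the test. Irf3, which is activated by phosphorylation downstream of MAVS, stood at 31.2 and 35.7 CPM with EtOH and 23.7 and 24.2 with 4OHT in the Hdac2 line, against 39.02 and 26.6 with EtOH and 25.8 and 35.2 with 4OHT in the Hdac1 line. Both of its 4OHT libraries in the Hdac2 line lay below the other 6 (log2 change -0.48 ± 0.24 SE, adjusted p = 0.143). Stat2 and Irf9 encode parts of the complex that binds the ISRE. Stat2 stood at 29.4 and 29.2 CPM with EtOH and 32.1 and 33.9 with 4OHT in the Hdac2 line, against 39.7 and 25.9 with EtOH and 26.1 and 35.6 with 4OHT in the Hdac1 line, and the groups overlapped between the lines (log2 change 0.17 ± 0.24 SE, adjusted p = 0.593). Irf9 stood at 3.82 and 3.63 CPM with EtOH and 4.81 and 6.75 with 4OHT in the Hdac2 line, against 7.91 and 7.403 with EtOH and 4.79 and 8.77 with 4OHT in the Hdac1 line, lowest in the Hdac2 line with EtOH (log2 change 0.63 ± 0.35 SE, adjusted p = 0.1796). Irf3 overlaps Bcl2l12 on the opposite strand and Irf9 overlaps Rnf31 on the same strand, and how reads in such overlaps were counted is not known.

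Of 8 effectors that bind or edit double-stranded RNA, 3 were tested and all 3 rose in the Hdac2 line. Eif2ak2, which encodes PKR, the kinase that halts translation on binding double-stranded RNA, stood at 12.9 and 12.7 CPM with EtOH and 33.3 and 40.97 with 4OHT in the Hdac2 line, against 21.2 and 34.96 with EtOH and 39.6 and 27.4 with 4OHT in the Hdac1 line. The EtOH libraries of the Hdac2 line lay below the other 6, and its 4OHT libraries overlapped those of the Hdac1 line, after a 2.898-fold rise (log2 change 1.53 ± 0.29 SE, adjusted p = 0.01196). Adar, which encodes ADAR1, the enzyme that edits adenosine to inosine in double-stranded RNA, stood at 29.4 and 28.2 CPM with EtOH and 51.3 and 53.9 with 4OHT in the Hdac2 line, against 33.6 and 44.5 with EtOH and 47.3 and 41.8 with 4OHT in the Hdac1 line. It had its lowest pair and its highest pair in the Hdac2 line and rose 1.82-fold (log2 change 0.87 ± 0.18 SE, adjusted p = 0.0143). Oasl2, of the oligoadenylate synthetase family whose product activates RNase L, stood at 0.843 and 0.382 CPM with EtOH and 3.34 and 5.33 with 4OHT in the Hdac2 line, against 0.382 and 0.7503 with EtOH and 1.02 and 0.228 with 4OHT in the Hdac1 line. The 4OHT libraries of the Hdac2 line lay above the other 6, which overlapped each other, and the rise was 6.72-fold (log2 change 2.75 ± 0.69 SE, adjusted p = 0.0224), or 3.47 on the log2 scale without Hdac2 line EtOH replicate 1. The other 5 (Oas1a, Oas2, Oas3, Oasl1 and Zbp1) had too few counts.

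Of 15 antiviral effectors, 11 were tested, 5 rose and 1 fell in the Hdac2 line. Xaf1, an interferon-induced gene that promotes cell death, stood at 1.49 and 1.05 CPM with EtOH and 7.06 and 7.29 with 4OHT in the Hdac2 line, against 2.67 and 1.75 with EtOH and 3.45 and 2.96 with 4OHT in the Hdac1 line. It was highest in the Hdac2 line with 4OHT and lowest there with EtOH, a 5.54-fold difference (log2 change 2.47 ± 0.35 SE, adjusted p = 0.00853). Samd9l, which restrains growth and viral translation and is mutated in inherited bone marrow failure, stood at 1.43 and 2.01 CPM with EtOH and 5.51 and 6.31 with 4OHT in the Hdac2 line, against 4.09 and 4.001 with EtOH and 2.36 and 2.68 with 4OHT in the Hdac1 line. The same 2 groups were its extremes (3.47-fold higher, log2 change 1.80 ± 0.31 SE, adjusted p = 0.009903). Bst2, which encodes tetherin, a membrane protein that holds budding virus on the cell, stood at 29.7 and 21.01 CPM with EtOH and 54.9 and 47.7 with 4OHT in the Hdac2 line, against 35.5 and 39.8 with EtOH and 45.4 and 49.1 with 4OHT in the Hdac1 line. Its EtOH libraries in the Hdac2 line lay below the other 6, and those with 4OHT overlapped the Hdac1 line with 4OHT (2.02-fold higher, log2 change 1.01 ± 0.20 SE, adjusted p = 0.0132).

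Ifit1, Ifit2 and Ifit3 lie side by side on chromosome 19 and encode proteins that bind viral RNA and translation factors. Ifit1, which binds RNA with an unmethylated cap, stood at 0.713 and 0.478 CPM with EtOH and 2.56 and 3.82 with 4OHT in the Hdac2 line, against 0.164 and 0.3501 with EtOH and 0 and 0.285 with 4OHT in the Hdac1 line. Both 4OHT libraries of the Hdac2 line lay above the other 6, of which 1 had 0 counts (5.18-fold higher, log2 change 2.37 ± 0.68 SE, adjusted p = 0.0321). Ifit2 stood at 2.98 and 5.54 CPM with EtOH and 8.15 and 11.2 with 4OHT in the Hdac2 line, against 9.44 and 8.35 with EtOH and 4.79 and 7.004 with 4OHT in the Hdac1 line. Its lowest library was 1 of the Hdac2 line with EtOH, and with 4OHT there it was 2.296-fold higher (log2 change 1.20 ± 0.36 SE, adjusted p = 0.0368) and overlapped the Hdac1 line with EtOH. Ifit3 stood at 0.389 and 0.287 CPM with EtOH and 2.33 and 1.5995 with 4OHT in the Hdac2 line, against 0.764 and 0.05002 with EtOH and 0.0785 and 0.171 with 4OHT in the Hdac1 line, with both Hdac2 line 4OHT libraries above the other 6, and did not pass the test (log2 change 2.49 ± 0.88 SE, adjusted p = 0.0594).

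The 3 tested genes of the Ifitm cluster on chromosome 7, which encode membrane proteins that block viral entry, did not rise. Ifitm2 stood at 166 and 169 CPM with EtOH and 98.9 and 98.5 with 4OHT in the Hdac2 line, against 213 and 125 with EtOH and 130.4 and 164 with 4OHT in the Hdac1 line. Both 4OHT libraries of the Hdac2 line lay below the other 6, and it fell to 0.589 of its EtOH level (log2 change -0.76 ± 0.25 SE, adjusted p = 0.0469). Ifitm3 (log2 change -0.21 ± 0.29 SE, adjusted p = 0.581) and Ifitm1 (log2 change 0.05 ± 0.39 SE, adjusted p = 0.936) had overlapping libraries in the Hdac2 line. Near copies of Ifitm1 (Gm7676) and Ifitm2 (Gm11951 and Gm8865) are annotated elsewhere, and how reads shared with them were counted is not known. Rsad2, which encodes viperin, an enzyme that makes a chain-terminating nucleotide, stood at 14.3 and 20.8 CPM with EtOH and 14.9 and 14.9 with 4OHT in the Hdac2 line, against 6.06 and 9.25 with EtOH and 10.6 and 11.05 with 4OHT in the Hdac1 line. Its EtOH and 4OHT libraries overlapped in the Hdac2 line (log2 change -0.23 ± 0.27 SE, adjusted p = 0.517), and all 4 lay above the Hdac1 line. Cmpk2, its neighbour on chromosome 12, which encodes a mitochondrial nucleotide kinase, went from 11.1 ± 1.25 to 7.71 ± 1.91 CPM (SD, n = 2) in that line and did not pass (log2 change -0.53 ± 0.33 SE, adjusted p = 0.227).

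Of 4 members that act through ISG15 or ubiquitin, 2 rose in the Hdac2 line. Usp18, which removes ISG15 from proteins and restrains the interferon receptor, stood at 0.713 and 0.764 CPM with EtOH and 2.64 and 2.58 with 4OHT in the Hdac2 line, against 0.327 and 0.5502 with EtOH and 0.157 and 0.228 with 4OHT in the Hdac1 line. The 4OHT libraries of the Hdac2 line lay above the other 6, and those of the Hdac1 line with 4OHT below the other 6 (3.51-fold higher in the Hdac2 line, log2 change 1.81 ± 0.43 SE, adjusted p = 0.0186). The Hdac1 line with 4OHT held only 2 and 4 reads of Usp18. Trim25, the ubiquitin ligase that activates RIG-I, stood at 92.9 and 94.9 CPM with EtOH and 185 and 191 with 4OHT in the Hdac2 line, against 147 and 200.3 with EtOH and 216 and 193 with 4OHT in the Hdac1 line. The EtOH libraries of the Hdac2 line were the lowest, and 4OHT there reached the range of the Hdac1 line (2.002-fold higher, log2 change 1.00 ± 0.18 SE, adjusted p = 0.0112). Isg15, the ubiquitin-like modifier itself, stood at 1.62 and 1.15 CPM with EtOH and 3.104 and 2.84 with 4OHT in the Hdac2 line, against 1.26 and 0.9003 with EtOH and 0.785 and 1.03 with 4OHT in the Hdac1 line. Both 4OHT libraries of the Hdac2 line lay above the other 6, but it did not pass the test (log2 change 1.08 ± 0.38 SE, adjusted p = 0.0575). Herc6, the ligase that attaches ISG15 in mouse, stood at 3.24 and 2.96 CPM with EtOH and 4.19 and 5.86 with 4OHT in the Hdac2 line, against 3.27 and 5.15 with EtOH and 3.85 and 3.19 with 4OHT in the Hdac1 line and did not pass (log2 change 0.69 ± 0.34 SE, adjusted p = 0.1396). Its Hdac2 line 4OHT libraries lay above the EtOH ones but overlapped the Hdac1 line.

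All 4 ADP-ribosylation members rose in the Hdac2 line, and 3 of them lie side by side on chromosome 16: Parp14 (35832874 to 35871544), Dtx3l (35926511 to 35939151) and Parp9 (35938470 to 35972605, mm10). Parp14, a mono-ADP-ribosyltransferase, stood at 1.43 and 2.197 CPM with EtOH and 13.04 and 19.99 with 4OHT in the Hdac2 line, against 7.64 and 8.55 with EtOH and 8.87 and 14.3 with 4OHT in the Hdac1 line. The EtOH libraries of the Hdac2 line lay below the other 6, those with 4OHT overlapped the Hdac1 line with 4OHT, and the 9.24-fold rise was the highest fold among the tested members (log2 change 3.21 ± 0.38 SE, adjusted p = 0.00642). Dtx3l, a ubiquitin ligase that works as a dimer with PARP9, stood at 5.25 and 6.97 CPM with EtOH and 15.1 and 18.6 with 4OHT in the Hdac2 line, against 17.8 and 19.1 with EtOH and 15.3 and 16.002 with 4OHT in the Hdac1 line. Parp9 stood at 5.38 and 6.78 CPM with EtOH and 11.9 and 16.8 with 4OHT in the Hdac2 line, against 16.6 and 15.4 with EtOH and 15.4 and 16.3 with 4OHT in the Hdac1 line. In both, the EtOH libraries of the Hdac2 line were the lowest and the other 6 lay near each other (log2 change 1.47 ± 0.22 SE, adjusted p = 0.00868 for Dtx3l and log2 change 1.24 ± 0.24 SE, adjusted p = 0.0125 for Parp9). Dtx3l and Parp9 overlap by 682 bases on opposite strands, and without the counting's strand setting reads there cannot be assigned. Parp12, a stress-responsive mono-ADP-ribosyltransferase on chromosome 6, stood at 3.82 and 3.25 CPM with EtOH and 8.15 and 8.44 with 4OHT in the Hdac2 line, against 4.91 and 4.001 with EtOH and 4.004 and 4.27 with 4OHT in the Hdac1 line, with its extremes again in the 2 Hdac2 line groups (2.33-fold higher, log2 change 1.22 ± 0.25 SE, adjusted p = 0.0142).

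Of 4 class I presentation members, 3 were tested and 1 rose in the Hdac2 line. B2m, the light chain of class I molecules, stood at 343 and 276 CPM with EtOH and 766 and 759 with 4OHT in the Hdac2 line, against 245 and 248 with EtOH and 322 and 289 with 4OHT in the Hdac1 line. The 4OHT libraries of the Hdac2 line lay above the other 6, with a 2.47-fold rise (log2 change 1.30 ± 0.17 SE, adjusted p = 0.00741). Per kilobase of exon it was the most abundant member, at 886.5 CPM per kilobase on average in that group, ahead of Ifitm2 at 150.7, Ifitm3 at 71.2 and Bst2 at 56.8. Psmb8, an immunoproteasome subunit, stood at 0.389 and 0.191 CPM with EtOH and 1.55 and 0.977 with 4OHT in the Hdac2 line, against 1.15 and 0.6502 with EtOH and 0.707 and 1.65 with 4OHT in the Hdac1 line and did not pass the test (log2 change 2.04 ± 0.69 SE, adjusted p = 0.0508). The EtOH libraries of the Hdac2 line lay below the other 6, which overlapped each other. Tap1, a subunit of the peptide transporter, stood at 16.98 and 4.97 CPM with EtOH and 8.38 and 5.15 with 4OHT in the Hdac2 line, against 6.38 and 6.002 with EtOH and 13.4 and 14.7 with 4OHT in the Hdac1 line. Its EtOH libraries in the Hdac2 line differed from each other more than the groups did (log2 change -0.71 ± 0.51 SE, adjusted p = 0.291).

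The 11 members that were not tested had at most 13 reads in any library. Irf7, the factor that amplifies interferon production, had 1 and 1 reads with EtOH and 8 and 7 with 4OHT in the Hdac2 line. Ifi44 had 1 and 0 reads with EtOH and 10 and 4 with 4OHT, Oas1a 0 and 1 reads with EtOH and 5 and 7 with 4OHT, and Oas2 0 and 0 reads with EtOH and 10 and 1 with 4OHT. Their highest counts in that line were with 4OHT, though in Oas2 only 1 of the 2 libraries was high. Zbp1, the sensor of left-handed nucleic acid that can trigger necroptosis, had 0 and 0 reads with EtOH and 2 and 2 with 4OHT, and Mx1, a dynamin-like antiviral GTPase, had 0 and 1 reads with EtOH and 4 and 2 with 4OHT. Oasl1, Mx2 and Ddx60 had at most 3 reads in any library of that line, Psmb9 also, and Oas3 had 0 in all 4. In 8 of the 11 the highest group mean was in the Hdac2 line with 4OHT. How often this held among other genes with few reads was not counted. A count of 3, taken as the floor, equals 0.15 to 0.287 CPM, so most values of the 11 cannot be told from 0.

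In the Hdac1 line, edgeR called 0 members and 0% of all tested genes between 4OHT and EtOH. At an unadjusted p under 0.05 there were 4 members (Ddx58, Ifitm1, Samd9l and Tap1) and 947 of all genes. DESeq2 called 0 members and 32 genes, and limma-voom 0 and 0. The median log2 fold change of the 35 members was -0.01, with 17 members above and 18 below 0, from -1.55 for Ifit3 to 1.18 for Tap1. Both 4OHT libraries lay above both EtOH libraries for 9 members, against 15.8% of all tested genes, and below them for 7, against 15.4%. Ddx58 was among the 9 (log2 change 0.62 ± 0.25 SE, adjusted p = 0.733, 95% interval 0.05 to 1.20). Ifih1 was among the 7 (log2 change -0.49 ± 0.27 SE, adjusted p = 0.798, 95% interval -1.12 to 0.15), as were Samd9l (log2 change -0.68 ± 0.29 SE, adjusted p = 0.737) and Usp18 (log2 change -1.13 ± 0.56 SE, adjusted p = 0.767). The value of Usp18 rests on 6 and 11 reads with EtOH and 2 and 4 with 4OHT. Parp9 overlapped between the groups (log2 change -0.01 ± 0.23 SE, adjusted p = 0.999, 95% interval -0.54 to 0.52). By a chi-square test, replicates of the Hdac1 line differed for 69.2% (EtOH) and 60.2% (4OHT) of tested genes with enough reads. In the Hdac2 line these shares were 43.4% and 40.6%, and library depth, on which they depend, also differed. The calls of 0 therefore do not show that the members were unchanged in the Hdac1 line.

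**Figure D3:**
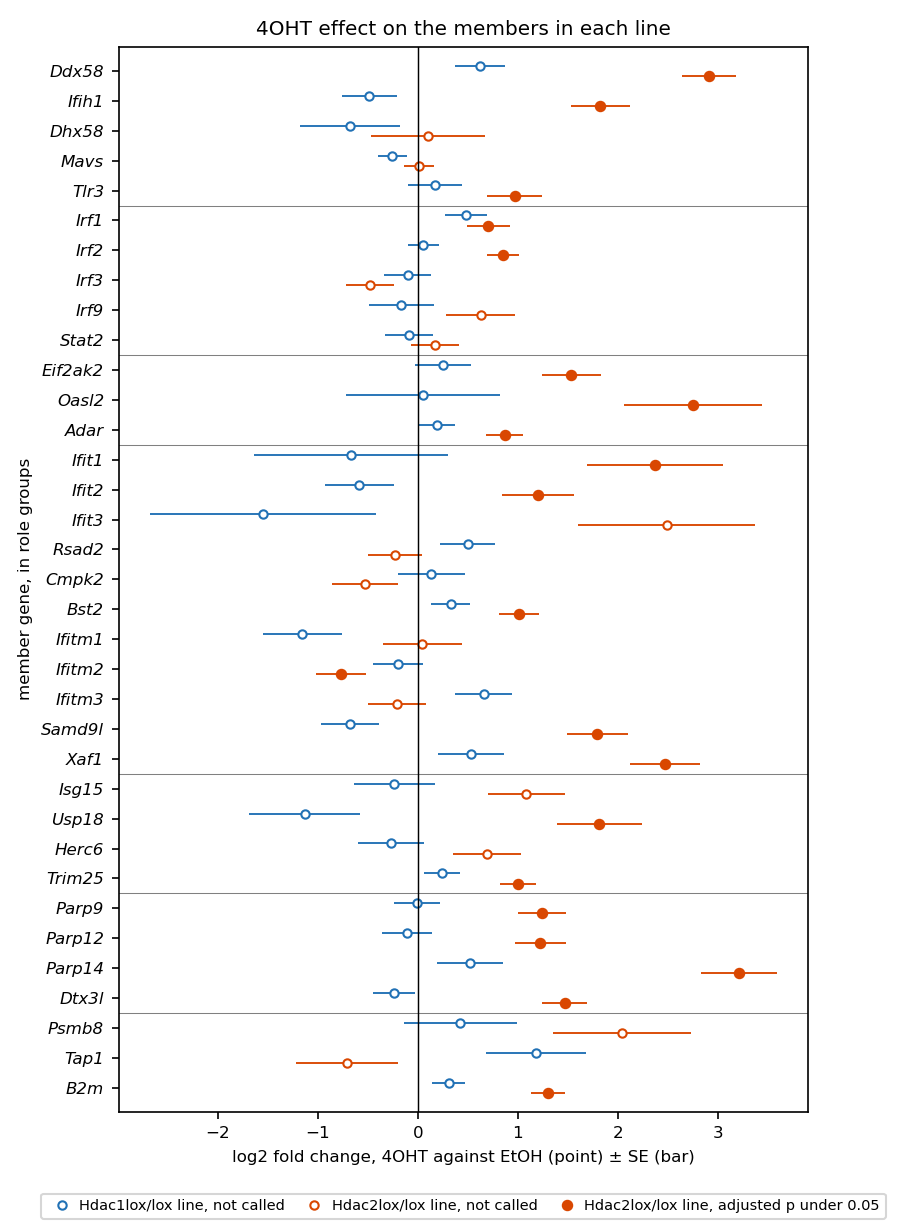
Log2 fold change of 4OHT against EtOH for the 35 tested members in the Hdac1 line (blue) and the Hdac2 line (orange), with SE as bars and filled points for an adjusted p under 0.05. The 20 filled points to the right of 0 and the 1 to its left (Ifitm2) all belong to the Hdac2 line, and the Hdac1 line points lie on both sides of 0.

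The difference between these effects was tested directly. With edgeR 0 of the 35 members passed, and 0.0282% of all tested genes did. At an unadjusted p under 0.05 there were 21 members, against 3973 of the 14179 tested genes. The effect was more positive in the Hdac2 line for 29 members and less for 6, with a median difference of 0.99 on the log2 scale. Over all tested genes it was more positive for 6997 and less for 7182, with a median of -0.01. Ddx58 had the smallest adjusted p (difference 2.29 ± 0.36 SE, adjusted p = 0.0637, 95% interval 1.46 to 3.12). Ifih1 (2.31), Samd9l (2.48), Parp14 (2.69) and Dtx3l (1.70) had the next smallest, at 0.06799 for Samd9l and 0.0682 for the other 3. DESeq2 called 10 members (Ddx58, Ifih1, Eif2ak2, Ifit2, Samd9l, Xaf1, Parp9, Parp14, Dtx3l and B2m) with 13.1% of all genes, edgeR without the filter on low counts called the same 10 with 5.5%, and limma-voom called 0. Without Hdac1 line EtOH replicate 1, edgeR called 13 members and 25.8% of all genes. Whether the effects of the 2 lines were called different thus depended on the tool, the filter and that library.

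The lines already differed with EtOH. There 8 members were higher in the Hdac1 line and 1 was lower, while of all tested genes 6.42% were higher and 2.91% lower (9.33% in all). The 8 were Parp14 (log2 change 2.18 ± 0.37 SE, adjusted p = 0.0246), Dtx3l (log2 change 1.60 ± 0.22 SE, adjusted p = 0.01703), Ifih1 (log2 change 1.496 ± 0.29 SE, adjusted p = 0.0304), Parp9 (log2 change 1.40 ± 0.24 SE, adjusted p = 0.0244), Samd9l (log2 change 1.25 ± 0.30 SE, adjusted p = 0.0446), Eif2ak2 (log2 change 1.13 ± 0.29 SE, adjusted p = 0.0499), Ddx58 (log2 change 1.09 ± 0.26 SE, adjusted p = 0.0442) and Trim25 (log2 change 0.89 ± 0.18 SE, adjusted p = 0.0326). The lower member was Rsad2 (log2 change -1.19 ± 0.27 SE, adjusted p = 0.0409). Both EtOH libraries of the Hdac1 line lay above both of the Hdac2 line for 19 members, against 30.3% of all tested genes, and below them for 5, against 29.9%. Erythroid markers summed to 293 to 938 CPM in the Hdac1 line and 1653 to 1707 in the Hdac2 line with EtOH, and endothelial markers to 3927 to 5484 and 2794 to 3080 CPM, and their part in these differences was not tested. This comparison and the 4OHT comparison of the Hdac2 line share the 2 EtOH libraries of that line. Both of these libraries lay below the other 6 for 16 of the 35 tested members, against 17.7% of all tested genes.

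Left out in turn, several libraries changed these EtOH calls, those of all tested genes as well as those of the members. Without Hdac1 line EtOH replicate 2, 1 member was called higher, and without Hdac2 line EtOH replicate 1 or 2 there were 0, with all 9 members at an unadjusted p under 0.05 in the same direction. Without Hdac2 line 4OHT replicate 1 or 2 there were 2. The call of Rsad2 was lost in each of these fits and without Hdac1 line 4OHT replicate 1. The EtOH libraries of the 2 lines did not overlap for any of the 9, so their kept direction was not a test. DESeq2 called 12 members with 19.5% of all genes in this comparison, and limma-voom 8 with 8.44%.

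With 4OHT, a comparison added after the EtOH levels were seen, 0 members were higher in the Hdac1 line and 7 were lower, while 4.27% of all tested genes were higher and 3.75% lower (8.02% in all). The 7 were Ifit1 (log2 change -4.24 ± 0.80 SE, adjusted p = 0.0274), Usp18 (log2 change -3.67 ± 0.50 SE, adjusted p = 0.0174), Oasl2 (log2 change -2.85 ± 0.69 SE, adjusted p = 0.0474), Isg15 (log2 change -1.70 ± 0.39 SE, adjusted p = 0.0417), B2m (log2 change -1.32 ± 0.17 SE, adjusted p = 0.0152), Samd9l (log2 change -1.22 ± 0.29 SE, adjusted p = 0.0445) and Ddx58 (log2 change -1.20 ± 0.25 SE, adjusted p = 0.0325). Both 4OHT libraries of the Hdac1 line lay below both of the Hdac2 line for 20 members, against 30.7% of all tested genes, and above them for 6, against 31.6%. Both 4OHT libraries of the Hdac2 line lay above all other 6 for 14 of the 35 tested members, against 18.1% of all tested genes. Of the 8 members higher in the Hdac1 line with EtOH, Ddx58 and Samd9l were lower there with 4OHT, and the other 6 were not called. Of these 6, Ifih1 (-0.81, 95% interval -1.45 to -0.17) had both libraries below those of the Hdac2 line and an interval below 0, and Parp14 (-0.50, 95% interval -1.26 to 0.25) overlapped. The remaining members, Parp9 (0.15, 95% interval -0.39 to 0.68), Dtx3l (-0.10, 95% interval -0.59 to 0.39), Eif2ak2 (-0.15, 95% interval -0.80 to 0.50) and Trim25 (0.12, 95% interval -0.30 to 0.54) had log2 differences near 0.

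Ifit1 entered this test through the Hdac2 line with 4OHT, and its value and those of Oasl2 and Usp18 rest on few reads in the Hdac1 line. Usp18 had 2 and 4 reads there with 4OHT, and its log2 change ran from -3.98 to -3.47 with 1 library left out. Without Hdac1 line 4OHT replicate 1, which had 0 reads of Ifit1, the log2 change was -3.44 for Ifit1 and -4.20 for Oasl2. Without replicate 2 it was -2.07 for Oasl2, and for Ifit1 the fitted -8.53 is set against 0 reads and is no bound. Of 7 tested macrophage and monocyte markers, 4 (Ptprc, Itgam, Csf1r and Emr1) were also lower in the Hdac1 line with 4OHT, against 3.75% of all tested genes. Another 2 had a log2 change above 0, up to 2.11, and were not called. For 1 of the 7, both Hdac1 line libraries lay above both of the Hdac2 line. Summed levels of the markers were 26.3 to 35.3 CPM against 44.5 to 53.8. The part of the markers in the differences of the members was not tested. The 4OHT calls, those of all tested genes as well as those of the members, also changed with single libraries. Without Hdac1 line 4OHT replicate 1 or 2, and without Hdac2 line 4OHT replicate 1 or 2, edgeR called 0 members, with all 7 at an unadjusted p under 0.05 in the same direction. Without Hdac2 line EtOH replicate 1 or 2 it called 2. Without Hdac1 line EtOH replicate 1 or 2 it called 10 lower and 1 higher. The 4OHT libraries of the 2 lines did not overlap for any of the 7, so their kept direction was not a test. DESeq2 called 10 members with 14.1% of all genes, and limma-voom 9 with 7.61%.

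**Figure D4:**
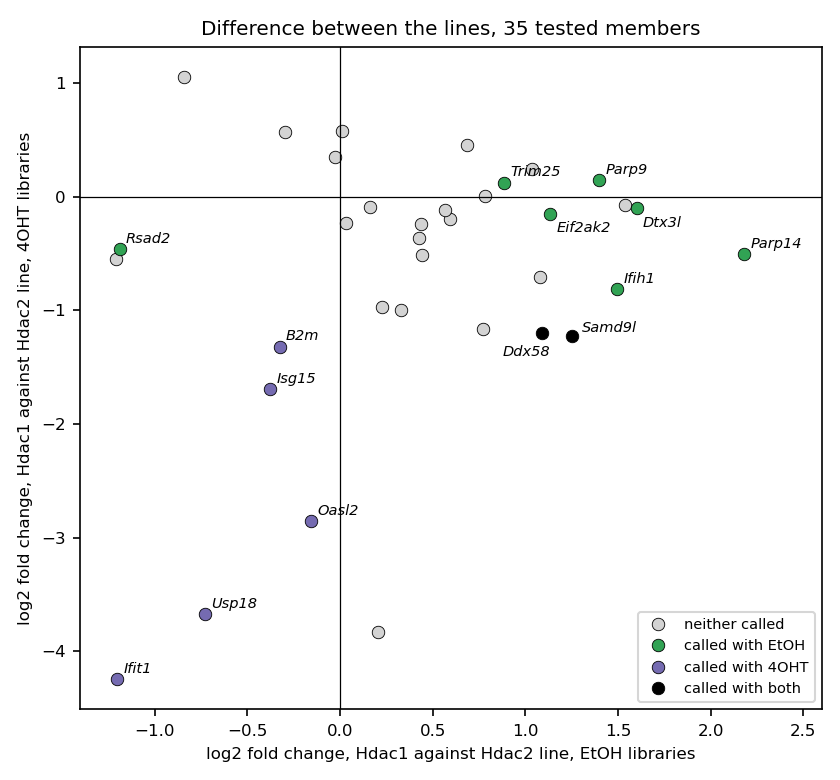
Log2 fold change of the Hdac1 line against the Hdac2 line for the 35 tested members, with EtOH (horizontal axis) and with 4OHT (vertical axis), where colours give the comparison in which a member was called. Parp9, Dtx3l, Eif2ak2 and Trim25 lie to the right near the horizontal line through 0, Ifit1, Usp18, Oasl2, Isg15 and B2m lie below it on the left, and Ddx58 and Samd9l were called in both.

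Around the members, the interferon genes themselves were almost without reads: of 21 listed ligand genes 0 could be tested, and over all 8 libraries there were 2 reads of Ifnb1 and 2 of Ifng. Of 10 tested genes for interferon receptors, their kinases and further IRFs, 7 rose and 0 fell in the Hdac2 line with 4OHT, where 18.9% of all tested genes rose and 17.2% fell. Ifngr1, a subunit of the interferon gamma receptor, went from 34.9 ± 2.58 to 69.1 ± 2.33 CPM (log2 change 0.99 ± 0.15 SE, adjusted p = 0.00868), and the kinase gene Jak2 from 58.8 ± 0.563 to 112 ± 5.996 CPM (log2 change 0.93 ± 0.18 SE, adjusted p = 0.0122). Jak1 (log2 change 0.74 ± 0.16 SE, adjusted p = 0.0159) and Ifngr2 (log2 change 0.64 ± 0.14 SE, adjusted p = 0.0161) rose as well.

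Of 17 tested adaptors and kinases downstream of RNA sensing, 3 rose and 1 fell in the Hdac2 line, a share of rises near the 18.9% of all tested genes. Traf3, which links MAVS to interferon induction, went from 13.5 ± 0.397 to 73.6 ± 8.27 CPM (log2 change 2.45 ± 0.44 SE, adjusted p = 0.0109). Trim56 (log2 change 1.96 ± 0.29 SE, adjusted p = 0.00868) and Tank (log2 change 0.88 ± 0.16 SE, adjusted p = 0.01098) rose, and Zcchc3, a co-receptor of the RIG-I-like sensors, fell (log2 change -0.51 ± 0.16 SE, adjusted p = 0.0421). Of 12 negative regulators, 3 rose and 2 fell, with a median log2 change of 0.06, again near the 18.9% and 17.2% of all tested genes. Tnfaip3, which encodes A20, a brake on NF-κB and interferon induction, went from 13.5 ± 0.875 to 65.3 ± 4.29 CPM (log2 change 2.27 ± 0.24 SE, adjusted p = 0.00504). Irf2bp2 (log2 change 0.64 ± 0.15 SE, adjusted p = 0.0182) and Socs3 (log2 change 0.60 ± 0.17 SE, adjusted p = 0.0334) rose, and Irf2bp1 fell (log2 change -0.52 ± 0.17 SE, adjusted p = 0.0437). In the Hdac1 line edgeR called 0 genes of these lists.

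**Figure D5:**
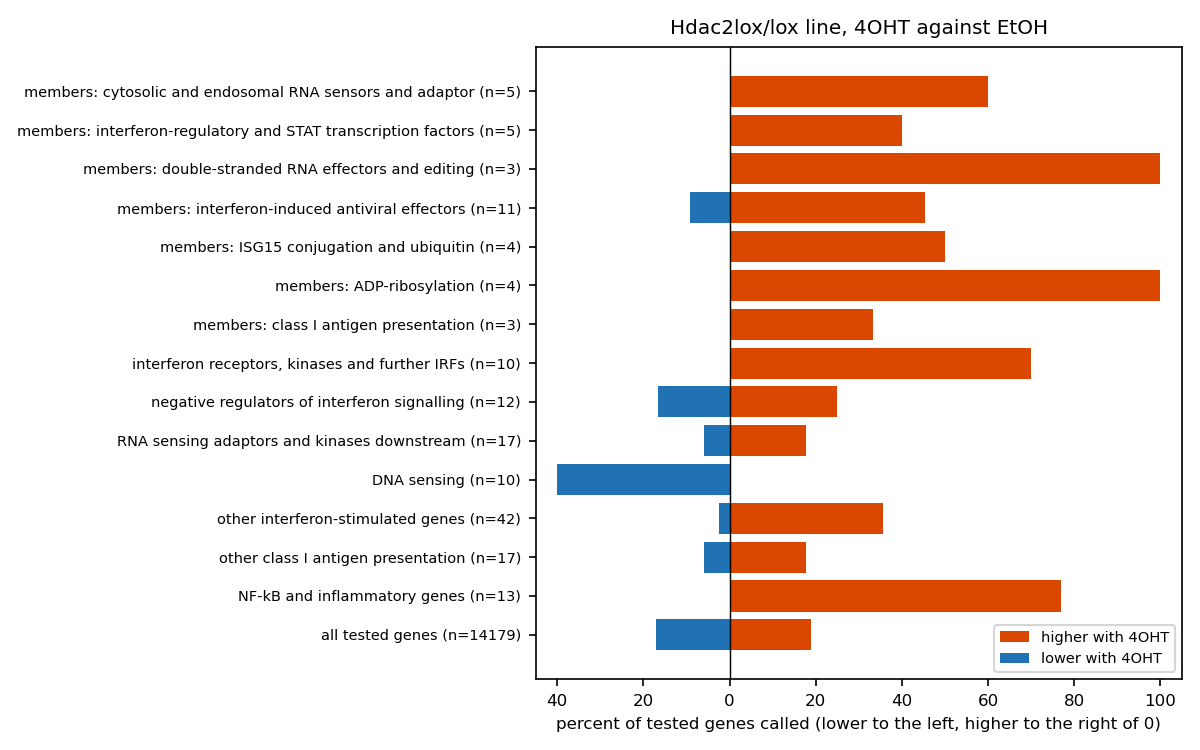
Percent of tested genes called higher (orange, to the right) and lower (blue, to the left) with 4OHT in the Hdac2 line, for the 7 role groups of the members, the other lists and all tested genes, with the number tested beside each name. Of all tested genes 18.9% were higher and 17.2% lower, and the groups hold 3 to 42 tested genes.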

How the data were processed

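RNA of 8 libraries was sequenced, 2 in each of 4 groups read from the sample titles. Per the labels' protocols, total RNA went into a strand-specific SureSelect kit. The authors deposited raw counts per gene, not normalized, for 41128 genes. The submitters' processing notes list, without saying what each did, edgeR 3.8.5, R 3.1.0, SAMtools 0.1.19, the build mm10, Bowtie2 2.2.1 and bcl2fastq 2.17.1.14. How reads were assigned to genes, with which annotation and strand setting, and what became of multiply mapped reads is not stated in those notes or the labels, so values of overlapping or near-identical genes are uncertain.

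Counts were filtered with filterByExpr (14179 genes left), scaled by TMM and fitted with the robust quasi-likelihood model of edgeR 4.0.16 (R 4.3.3), with 1 mean for each group and 1 spread shared by all. The lines were compared with 4OHT only after the EtOH levels were seen. P-values were adjusted by Benjamini-Hochberg over all tested genes, and a standard error is the log2 fold change over the square root of F. Values after ± are SE for log2 changes and SD (n = 2) for CPM. The script was tested on simulated data. Alternatives were other scalings, no filter, DESeq2 1.42.0, limma-voom (limma 3.58.1), a replicate block, a fit of 1 line alone, and each library left out. The labels name no molecular identifiers, so PCR copies may be counted as separate reads. The members, lists and naming rule were chosen with earlier results of these data known. The rule gives per-library values for up to 6 members per role group with the smallest adjusted p in the Hdac2 line, and for members called elsewhere. Of each other list it names up to 4 genes. A gene of the pathway lists is not reported here.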

Additional observations from a re-analysis of the deposited data

How the results depend on the processing

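In the Hdac2 line the 21 called members kept their direction under every alternative run, with 18 to 23 called higher in the fits that kept all libraries and 0 to 22 with 1 library left out. The lower call was 0 with DESeq2's size factors and with the replicate block, 2 when only the Hdac2 line was fitted, and 0 to 1 with 1 library left out. Without the filter on low counts, Irf7, Oas2, Ifit3 and Psmb8 were also called and Irf1 was not. In the Hdac1 line 0 members were called under every alternative, library left out included. The difference between the lines' effects was called for 10 members without the filter, 10 by DESeq2 and 0 to 13 with 1 library left out. With EtOH, 2 members were called higher with the replicate block and 0 to 10 with 1 library left out. Lower calls there numbered 2 with upper quartile scaling, without the filter, by DESeq2 and by limma-voom, 0 with the block, and 0 to 1 with 1 library left out. With 4OHT, 2 were lower with the replicate block, and 0 to 10 lower and 0 to 1 higher with 1 library left out. With 1 library left out, the kept direction of the 21 followed from groups that did not overlap and was not a test. In the fits that kept all libraries of the Hdac2 line and left none out elsewhere, 23.1% to 53.4% of all tested genes were called in that line. With the replicate block, 1.3% of all tested genes were called between the lines with EtOH and 1.57% with 4OHT. The causes were not tested.

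Upper quartile scaling and library size alone moved the median of all genes in the Hdac2 line to -0.15 and -0.14, and that of the members to 0.88 and 0.90. Under them the log2 changes became -0.031 and -0.017 for Dhx58, -0.12 and -0.11 for Mavs, and -0.088 and -0.073 for Ifitm1. Library size alone moved the median of all genes between the lines with 4OHT to 0.12. With 1 library left out, the log2 change in the Hdac2 line ran from -0.031 (without 4OHT replicate 1) to 0.058 for Mavs, from -0.48 to 0.068 (without EtOH replicate 2) for Rsad2, and from -0.23 (without 4OHT replicate 1) to 0.28 for Ifitm1. It ran from -0.58 to 0.30 for Ifitm3 and from -1.32 to 0.45 for Tap1, both highest without EtOH replicate 1. These 5 were not called in the fit of all libraries.

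Same-numbered libraries did not deviate together: the correlation of deviations ran from -0.734 between the Hdac1 groups to 0.307 between the Hdac2 groups, so numbers were not taken to pair samples. The replicate block left 18 of the higher calls in the Hdac2 line, with 25.6% of all tested genes called. With the numbers of the Hdac1 4OHT libraries crossed, a pairing added after seeing the data, 23 members were higher in the Hdac2 line. That fit called 47.1% of all tested genes in the Hdac2 line, against 36.1% in the main fit. It called 14 members different between the lines' effects, with 17.9% of all tested genes against 0.0282%. With EtOH it called 2 members lower, with 25.2% of all tested genes called in either direction against 9.33%. The 11 untested members had too few reads for a test. A looser ISRE core, with its last A left out, was in 20 of the 38 members with a promoter (52.6%). It was in 9.76% of the 27025 genes with a promoter.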

Other observations

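Other interferon-stimulated genes outside the 46 were described by lists written with earlier results of these data known. Of 42 tested, 15 rose and 1 fell in the Hdac2 line with 4OHT, with a median log2 fold change of 0.69, against -0.02 over all tested genes, of which 18.9% rose and 17.2% fell. Gbp7, a guanylate-binding protein gene, went from 3.07 ± 0.152 to 16.6 ± 1.702 CPM (SD, n = 2; log2 change 2.43 ± 0.22 SE, adjusted p = 0.00413), Helz2 from 2.99 ± 0.0985 to 13.5 ± 0.9999 CPM (log2 change 2.18 ± 0.26 SE, adjusted p = 0.00642) and Znfx1, a helicase gene of RNA sensing, from 15.7 ± 1.27 to 62.96 ± 7.61 CPM (log2 change 2.00 ± 0.31 SE, adjusted p = 0.00868). Tdrd7 also rose (log2 change 1.47 ± 0.28 SE, adjusted p = 0.0122). Of 17 other class I presentation genes 3 rose and 1 fell, a share of rises near the 18.9% of all tested genes. Tapbp (log2 change 0.79 ± 0.19 SE, adjusted p = 0.0191), Erap1 (log2 change 0.82 ± 0.23 SE, adjusted p = 0.02803) and Tapbpl (log2 change 0.95 ± 0.28 SE, adjusted p = 0.0328) rose, and the immunoproteasome gene Psmb10 fell (log2 change -1.38 ± 0.45 SE, adjusted p = 0.0449).

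The DNA sensing list holds sensors and also enzymes that act on nucleic acids, such as RNase H2. Of its 10 tested genes, 0 rose and 4 fell in the Hdac2 line with 4OHT by edgeR, where 18.9% of all tested genes rose and 17.2% fell. At an unadjusted p under 0.05 in either direction there were 6, against 7030 of the 14179 tested genes. All 3 subunit genes of RNase H2, which removes ribonucleotides from DNA, fell: Rnaseh2a went from 48.4 ± 4.79 to 18.5 ± 2.94 CPM (log2 change -1.39 ± 0.24 SE, adjusted p = 0.0103), Rnaseh2c from 37.5 ± 1.797 to 16.4 ± 2.92 CPM (log2 change -1.19 ± 0.29 SE, adjusted p = 0.0197) and Rnaseh2b from 17.1 ± 4.08 to 9.41 ± 1.896 CPM (log2 change -0.86 ± 0.29 SE, adjusted p = 0.0493). Tmem173, which encodes STING, fell as well (log2 change -0.66 ± 0.22 SE, adjusted p = 0.0469). Of 13 tested NF-κB and inflammatory genes 10 rose and 0 fell, among them the adhesion gene Icam1, which went from 69.2 ± 30.1 to 271 ± 21.5 CPM (log2 change 1.97 ± 0.28 SE, adjusted p = 0.00853), Birc3 (log2 change 1.37 ± 0.21 SE, adjusted p = 0.00868), Nfkb1 (log2 change 0.92 ± 0.19 SE, adjusted p = 0.0135) and Nfkbie (log2 change 1.08 ± 0.26 SE, adjusted p = 0.0205). In the Hdac1 line edgeR called 0 of these 13, and 6 had an unadjusted p under 0.05, against 947 of the 14179 tested genes. All 13 had a log2 change above 0 there, with a median of 0.77. Both 4OHT libraries lay above both EtOH libraries for 10 of them, against 15.8% of all tested genes.

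The ISRE core and the calls of the Hdac2 line can be set side by side. Of 16 members with the core, 13 were tested, 7 rose and 1 fell. Of 22 with a promoter and no core, 18 were tested, 10 rose and 0 fell, and of the 8 that RefSeq's table did not give a promoter for, 4 were tested and 3 rose. Of all tested genes 18.9% rose and 17.2% fell. Ifit1, which rose, and Ifit3, which was not called, hold the core and entered the test through the Hdac2 line with 4OHT.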
